A study of Mus musculus with 20 samples.

Results

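Interleukin-1 family cytokines and their decoys were followed here as 5 genes, namely Il1a, Il1b, Il18, Il1rn and Il1r2, out of 21887 protein-coding genes of the mouse gene table. Their sites were taken as all p65 and SOCS1 peaks with a centre within 20 kb of the gene's span in the mm10 build. This gave 146 peaks in 57 sites, out of 96700 sites in all, where a site is a stretch in which peaks of any of 12 peak lists overlap by at least 1 bp, directly or through another peak. The lists come from CUT&RUN, in which an antibody directs a nuclease to cut out the DNA beside its target, on mouse bone-marrow-derived macrophages grown with macrophage colony-stimulating factor. The cells were a knockout (KO), which the design text names as NOS1 KO, or wild type (WT), which it names as C65BL6, and both genotypes were left without treatment (control) or stimulated for 30 min or 8 h by lipopolysaccharide (LPS) at 100 ng/mL. Peaks of the anti-p65 and anti-SOCS1 libraries of a group were called against 1 IgG library, which both lists of that group share. The labels used here give no allele, clone, animal number or age, while the title of the study concerns SOCS1. Peak centres inside Nos1 numbered 0, 4 and 3 for p65 and 1, 4 and 1 for SOCS1 in KO control, 30 min and 8 h cells, against 0 in each of the 6 WT lists, and no list had one inside Socs1, so which gene was disrupted was not settled by these lists.

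Interleukin-1 alpha and beta, encoded by Il1a and Il1b, are pro-inflammatory cytokines that signal through the receptor Il1r1 and its partner Il1rap. Il1b and Il18 are made as inactive precursors that caspase-1 cleaves in inflammasomes, whereas the precursor of Il1a is active as it is. Il1rn encodes the receptor antagonist, which occupies the receptor without signalling, and Il1r2 encodes a decoy receptor that binds the cytokines but lacks the signalling domain. In macrophages LPS acts through TLR4 to bring NF-κB, of which p65 is the main activating subunit, into the nucleus, and Il1b is one of its best known targets. SOCS1 is a feedback inhibitor of cytokine signalling through JAK kinases.

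Each group is 1 library. Differences between groups therefore carry no test, and the 95% intervals given cover counting error only. Levels are the authors' Normalized Tag Count, the tags in a peak per 10000000 tags of its library. That count is not divided by the width of the peak, which was set per library and ran from 222 to 493 bp; at 8 h the p65 peaks were 493 bp wide in KO cells and 239 bp in WT cells. Folds are therefore also given per 100 bp of width, and differences of at least 2-fold are named. Depth was 7.69 to 18.4 M tags for p65 and 6.93 to 9.74 M for SOCS1, where 10 M are 10000000. The weakest peak of a list had a Normalized Tag Count of 6.51 to 10.3, and a peak also had to stand 4-fold above its surroundings, so the absence of a call does not show that a site was unbound. The deposited IgG count stood at its floor of 0.5 under 91.4% of p65 peaks and 88.0% of SOCS1 peaks in KO control cells. In the other lists it did so under 14.7% to 43.0% of peaks. The effect of this on the number of calls in KO control cells was not tested. All 6 macrophage marker genes examined had a peak in every list, and of the markers of other cell types 2 to 8 of 8 neutrophil, 2 to 6 of 6 lymphocyte and 4 to 6 of 6 dendritic cell genes did, so that a nearby peak does not tell cell types apart.

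Few p65 peaks lay near these genes in untreated cells, and after LPS all 5 genes had at least 1 in both genotypes. In KO cells p65 was called at 2 sites of 2 genes in control, 25 sites of 5 genes at 30 min and 14 sites of 5 genes at 8 h. Of all genes, 42.7%, 70.2% and 62.4% had a p65 peak within 20 kb in these KO lists. In WT cells p65 was called at 4 sites of 3 genes in control, 23 sites of 5 genes at 30 min and 23 sites of 5 genes at 8 h, where 39.7%, 67.3% and 62% of all genes had a peak. Peaks within this distance of a gene are thus common, and 5 genes are too few to set a full count apart from that background.

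SOCS1 was called at 5 to 12 sites in each list, control lists included. In KO cells SOCS1 was called at 8 sites of 4 genes in control, 9 sites of 4 genes at 30 min and 11 sites of 5 genes at 8 h, where 62.5%, 57.5% and 51.1% of all genes had a SOCS1 peak. In WT cells it was called at 5 sites of 3 genes, 12 sites of 3 genes and 7 sites of 4 genes, against 38.9%, 54.4% and 45.2% of all genes. Il1b was the gene with a peak in all 12 lists. Il1rn and Il18 had one in 11 lists, Il1a in 9 and Il1r2 in 5.

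Summed over the peaks of a gene, p65 was highest at Il1b at 8 h, with 755.1 in KO cells and 470.7 in WT cells; only 0.315% of all genes in the KO list and 1.06% in the WT list had a larger sum. Il1a summed to 295.9 in KO and 355.0 in WT cells at 8 h, with 4.69% and 2.10% of genes higher. Il1r2 stood at the other end, with 19.1 in KO and 35.9 in WT cells and 56.4% and 43.1% of genes higher. For SOCS1 at 8 h the sum at Il1b was 191.7 in KO cells and 108.8 in WT cells, with 2.85% and 4.78% of genes higher.

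**Figure D1:**
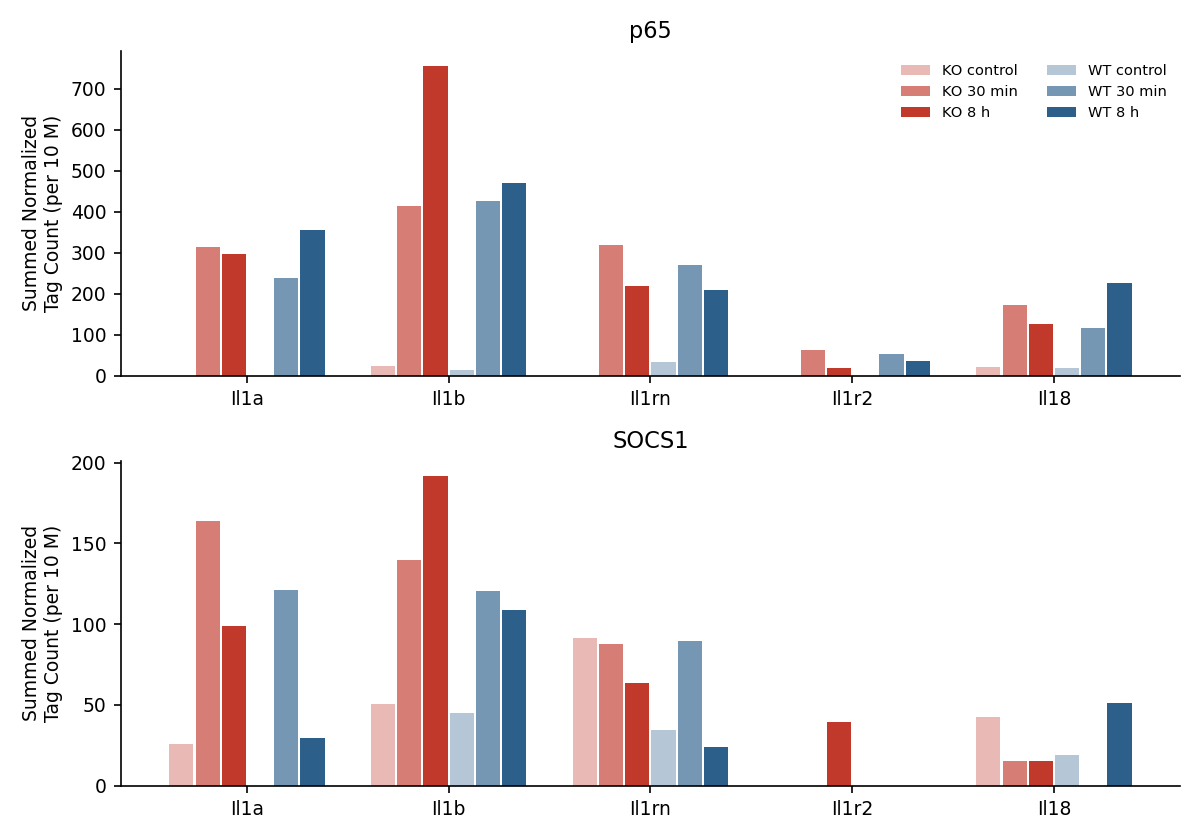
Summed Normalized Tag Count (per 10 M tags) of all peaks within 20 kb of each gene, for p65 (top) and SOCS1 (bottom), with KO bars in red to the left of WT bars in blue and darker shades for later times. A missing bar means that no peak was called; the tallest p65 bar is Il1b in KO cells at 8 h, at 755.1, and each bar is 1 library, so no error is drawn.

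Most of the strongest sites lay away from the start of transcription. All 5 genes had an entry in RefSeq's promoter table (GRCm38.p6), which holds 250 bases before to 50 after a start site. No list had a peak on the window of Il1a or Il1b. The sequences before 4 starts, which show what lies where peaks were or were not called, are printed 5′ to 3′ on the gene's own strand, with a match to any of 5 searched motifs in capitals.
Il1b, minus strand, chr2:129371140-129371389: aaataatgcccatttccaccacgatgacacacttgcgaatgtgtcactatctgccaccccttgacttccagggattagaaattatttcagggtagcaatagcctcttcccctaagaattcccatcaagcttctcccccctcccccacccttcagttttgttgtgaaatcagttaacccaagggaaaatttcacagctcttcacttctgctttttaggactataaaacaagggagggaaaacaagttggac
Il1a, minus strand, chr2:129309973-129310222: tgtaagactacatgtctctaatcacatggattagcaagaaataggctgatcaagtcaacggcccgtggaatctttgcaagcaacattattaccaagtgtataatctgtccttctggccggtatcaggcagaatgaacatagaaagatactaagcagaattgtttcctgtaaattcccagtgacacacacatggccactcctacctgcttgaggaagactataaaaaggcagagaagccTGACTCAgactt
Il18, plus strand, chr9:50554450-50554699: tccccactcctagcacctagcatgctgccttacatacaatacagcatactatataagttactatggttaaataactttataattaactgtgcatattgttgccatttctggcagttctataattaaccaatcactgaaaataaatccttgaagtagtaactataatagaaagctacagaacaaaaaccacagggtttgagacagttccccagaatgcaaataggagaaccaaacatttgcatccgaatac
Il1r2, plus strand, chr1:40085843-40086092: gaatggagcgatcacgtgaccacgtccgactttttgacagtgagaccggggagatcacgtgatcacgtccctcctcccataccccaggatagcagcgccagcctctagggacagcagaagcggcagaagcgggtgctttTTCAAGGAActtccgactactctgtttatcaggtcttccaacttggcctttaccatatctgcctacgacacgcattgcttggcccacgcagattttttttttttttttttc

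The motifs, each searched on both strands, were GGGNNNNNCC for NF-κB, TGANTCA for AP-1, TTGCNNAA for C/EBP, TTCNNNGAA for STAT factors and GAGGAAGT for PU.1, and they were chosen after the sequences had been seen. Among 21263 promoter stretches of this length, 51.8% held the NF-κB motif, 6.13% the AP-1 motif, 9.09% the C/EBP motif, 6.58% the STAT motif and 2.23% the PU.1 motif. None of the 5 was found before the start of Il1b or Il18. The capitals mark TGACTCA before Il1a and TTCAAGGAA before Il1r2. Il1rn has 3 start sites in the table: the outermost stretch held TGAGTCA and GGGAGTGGCC, and the innermost held GGGTTTTTCC, shown within 30 bases because the strongest site of this gene begins there.
Il1rn, plus strand, chr2:24345310-24345339: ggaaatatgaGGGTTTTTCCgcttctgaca
No peak of any list covered that whole match. The site reaches it only through the SOCS1 peak of WT control cells, and every p65 peak of the site begins beyond it. A match to such short letters is a description of the sequence and not of binding.

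Peaks on a promoter window were called for Il1rn, at its inner starts, with p65 in WT control, 30 min and 8 h cells and with SOCS1 in WT control cells. Il1r2 had one with p65 in KO 30 min and WT 8 h cells and with SOCS1 in KO 8 h cells, and Il18 had one with SOCS1 in KO control cells. At the inner Il1rn starts the p65 peak of KO 30 min cells, of 90.1, began just beyond the window. It overlapped the WT 30 min peak by 229 bp, and peaks were 222 bp wide in that KO list and 254 bp in the WT list. Of 17492 genes with a window, the share with a p65 peak on it was 10.9%, 29.1% and 16.6% in KO cells and 8.38%, 22.7% and 19.3% in WT cells, at control, 30 min and 8 h. For SOCS1 it was 17.1%, 18.8% and 14% in KO cells and 9.6%, 15.2% and 12.8% in WT cells. No more than 2 of the 5 genes had such a peak in any list.

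Il1b carried the strongest site of the 57. It lies 9.51 kb upstream of the start (chr2:129380397-129381223) in no annotated protein-coding gene, and was called in 10 of 12 lists. The p65 Normalized Tag Count in KO cells was 23.9 in control, 206.1 at 30 min and 544.6 at 8 h. In WT cells p65 was not called in control and reached 182.8 at 30 min and 356.5 at 8 h. The site thus had its highest p65 value at 8 h in both genotypes, where it ranked 12 of 25811 peaks in the KO list and 32 of 31007 in the WT list.

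In KO cells the p65 value at this site was 8.62-fold that of control at 30 min (5.56 to 14.1) and 22.8-fold at 8 h (14.8 to 37.1); both folds share the control library. The 8 h value was 2.64-fold that of 30 min in KO cells (2.32 to 3.01) and 1.95-fold in WT cells (1.66 to 2.30). Per 100 bp of width the 8 h value was 1.19-fold that of 30 min in KO cells and 2.07-fold in WT cells. The KO fold between the LPS times therefore depends on the widths, whereas the WT fold is close by both measures.

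SOCS1 was also called there. Its Normalized Tag Count in KO cells was 25.4 in control, 68.6 at 30 min and 95.2 at 8 h, and in WT cells it was not called in control, 27.2 at 30 min and 71.5 at 8 h. The SOCS1 values thus had the same order over time as the p65 values, at lower levels. The 8 h value was 3.75-fold that of control in KO cells (2.27 to 6.45), and 2.63-fold that of 30 min in WT cells (1.66 to 4.29). The IgG tags in the same peaks were 12.7 in KO and 1.0 in WT cells for the SOCS1 lists at 8 h, and 14 in KO and 1.0 in WT cells for the p65 lists; the IgG tags of the SOCS1 KO list are scaled to its own library and those of the other 3 lists are not. Over the SOCS1 KO lists the IgG tags, as deposited, were 2.5 in control, 9.7 at 30 min and 12.7 at 8 h. The deposited fold of SOCS1 over IgG was 6.98, 6.47 and 5.84 in these lists, and so did not rise with time. In the WT lists it was 45.3 at 30 min and 66.1 at 8 h. The deposited fold of p65 over IgG was 6.55, 97.2 and 33.4 in the KO lists, and so was highest at 30 min. In the WT lists that of p65 was 20.3 at 30 min and 329.4 at 8 h. The part of this IgG signal in the KO values was not tested.

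**Figure D2:**
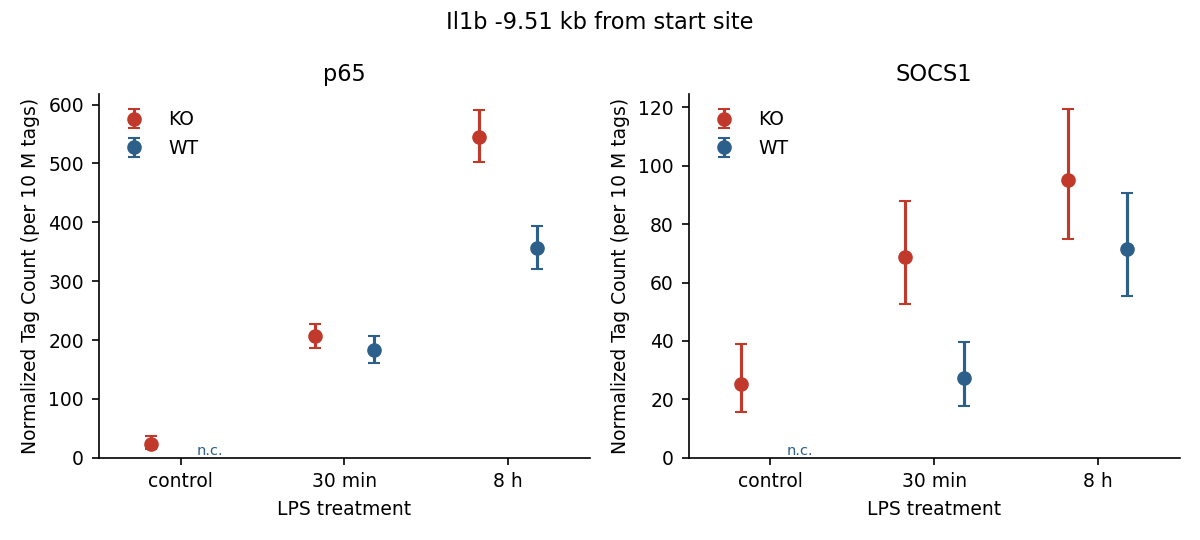
Normalized Tag Count (per 10 M tags) at the Il1b site 9.51 kb upstream, for p65 (left) and SOCS1 (right) by LPS treatment, with KO points in red to the left of WT points in blue and exact 95% Poisson intervals; n.c. marks a list in which the site was not called. Values are highest at 8 h in both genotypes and for both antibodies, with 544.6 in KO and 356.5 in WT cells for p65.

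The p65 peaks of this site did not sit at one place. Their centre lay 9.66 kb from the start in KO cells and 9.54 kb in WT cells at 8 h, against 9.96 kb in both genotypes at 30 min. The centre was thus 306 bp nearer to the gene at 8 h in KO cells and 414 bp nearer in WT cells. In WT cells the peaks of the 2 times did not overlap and were 167 bp apart, and in KO cells they overlapped by 52 bp. Of all sites called at both times, the highest peaks did not overlap in 6.72% of 16863 sites in KO cells and 10.5% of 18357 sites in WT cells, and 14.6% and 4.93% of sites had a larger distance between centres. The SOCS1 peaks were centred 9.48 kb from the start at both LPS times in KO cells, and 9.38 kb at 30 min and 9.57 kb at 8 h in WT cells, which is closer to the p65 peaks of 8 h than to those of 30 min. At 30 min the SOCS1 peak did not overlap the p65 peak of the same cells, with 172 bp between them in KO cells and 336 bp in WT cells, while at 8 h they overlapped. In KO cells the p65 peaks of 30 min and control were 231 bp apart too, so folds between times at this site partly set adjacent peaks side by side.

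Il1b had 3 further sites called in 4 or more lists. The site 2.51 kb upstream (chr2:129372738-129374008) lies in the span of Il1bos, a long non-coding RNA gene that overlaps the start of Il1b. Its p65 values were 79.7 at 30 min and 114.1 at 8 h in KO cells and 75.4 and 54.3 in WT cells, with none called in control. It was made of 2 separate p65 peaks at 30 min in both genotypes, centred 2.05 and 2.67 kb from the start in KO cells and 2.12 and 2.68 kb in WT cells. At 8 h 1 peak was called, 1.85 kb from the start in KO cells and 2.66 kb in WT cells, so that the 8 h peaks of the genotypes are not the same stretch and lie 446 bp apart. By the highest peak, 8 h over 30 min was 1.43 in KO cells (1.12 to 1.83) and 0.720 in WT cells (0.511 to 1.01), and by the sum of the peaks it was 0.825 in KO cells and 0.379 in WT cells, so that the KO direction turned.

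SOCS1 was called at that site in KO control cells with 25.4 and KO 8 h cells with 44.4, and in WT cells with 21.6 in control, 32.3 at 30 min and 37.3 at 8 h. WT 30 min cells had another SOCS1 peak there, of 28.7. The WT 8 h over 30 min fold was 1.15 by the highest peak (0.694 to 1.93) and 0.611 by the sum, so that its direction turned. The highest WT 30 min peak did not overlap the 8 h peak, 166 bp away, or the control peak, 98 bp away. The site 10.6 kb downstream of the start, beyond the end of the gene (chr2:129360199-129360930), was called in 9 lists. Its p65 values were 36.1 and 35.5 in KO cells at 30 min and 8 h, and 13, 45.8 and 21.2 in WT cells in control, at 30 min and at 8 h. WT cells thus had the highest p65 value there at 30 min, 3.52-fold that of control (1.79 to 7.71). Its SOCS1 values were 42.3 and 32.8 in KO cells at 30 min and 8 h and 23.1 and 20.0 in WT control and 30 min cells.

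The site 16.8 kb upstream had p65 values of 33.9 and 60.9 in KO cells at 30 min and 8 h and 30 and 25.5 in WT cells, and SOCS1 was called there at 8 h in KO cells with 19.3. The other 4 sites of Il1b were each called in 1 list, with values up to 28.6.

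**Figure D3:**
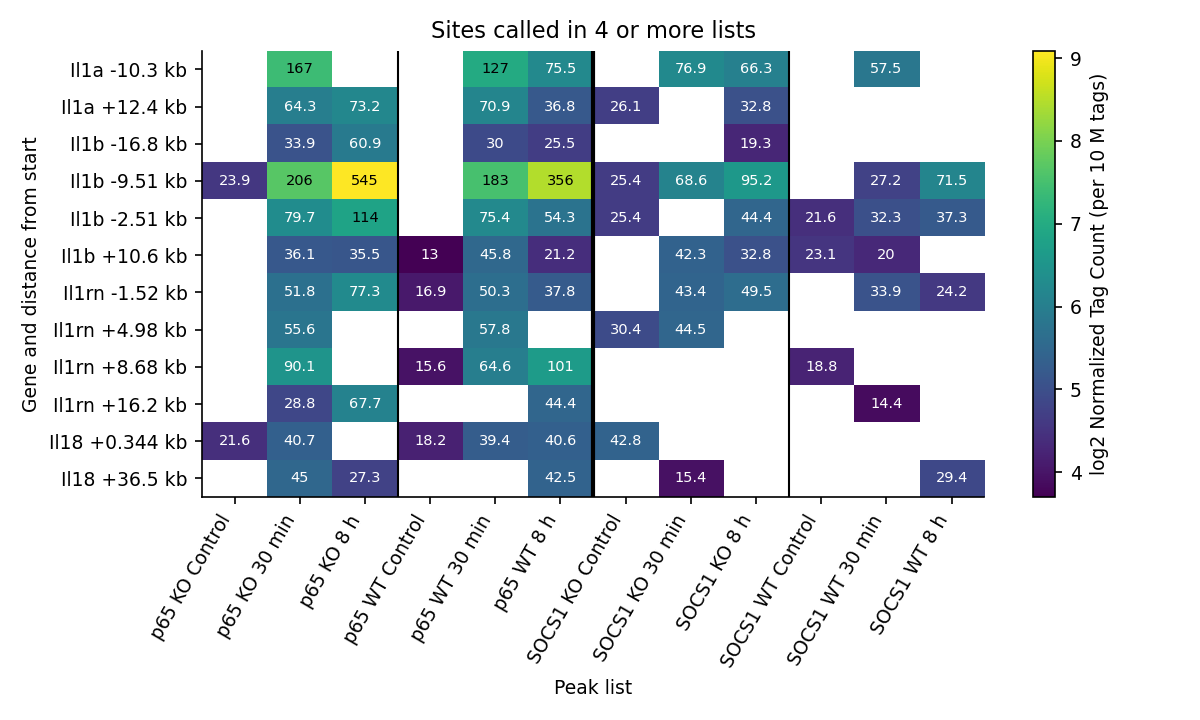
Normalized Tag Count (printed, and as log2 in colour) of the 12 sites called in 4 or more lists, by gene and distance from the start (rows, negative is upstream) and by list (columns, KO left of WT within each antibody). Empty cells were not called; the row of Il1b at 9.51 kb upstream holds the highest values, and Il1r2 has no row.

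Il1a lies next to Il1b on chromosome 2 in the same orientation, and its p65 peaks were all called after LPS, with none in a p65 control list. The site 10.3 kb upstream (chr2:129320032-129320548) had p65 values of 167.4 in KO cells at 30 min, with none called at 8 h, and 126.9 and 75.5 in WT cells at 30 min and 8 h. In WT 8 h cells another peak of 99.2 lay beside it, 9.80 kb upstream. SOCS1 was called at the 10.3 kb site with 76.9 and 66.3 in KO cells at 30 min and 8 h and with 57.5 in WT cells at 30 min. It was thus a site with both antibodies after LPS in both genotypes, and it was the strongest SOCS1 site of this gene.

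The site 1.49 kb upstream of Il1a (chr2:129310994-129311598) was nearest to its start among those with p65. Its p65 values were 81.6 and 222.7 in KO cells at 30 min and 8 h, and in WT cells it was called at 8 h alone, with 104.8. In KO cells the 8 h value was 2.73-fold that of 30 min (2.22 to 3.37) and 1.23-fold per 100 bp. No SOCS1 peak overlapped this site in any list, though one of 46.1 was called 1.89 kb upstream in KO 30 min cells.

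At 12.4 kb downstream of its start, beyond the end of Il1a and at the long non-coding RNA gene Gm14023, p65 was called with 64.3 and 73.2 in KO cells at 30 min and 8 h and with 70.9 and 36.8 in WT cells. This site (chr2:129297264-129297962) begins just beyond the span of the protein-coding gene Ckap2l, so a link to Il1a is by distance only. SOCS1 was called there in KO cells alone, with 26.1 in control and 32.8 at 8 h. A site 18.7 kb upstream had SOCS1 values of 41.2 in KO and 21.6 in WT cells at 30 min and a p65 value of 38.7 in WT cells at 8 h. Of the 11 sites of Il1a, 7 were called in 1 list.

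At Il18, p65 was called near the start already without LPS. The site 0.344 kb inside the start, where Il18 and Bco2 (a carotenoid-cleaving enzyme) overlap (chr9:50554411-50555219), had p65 values of 21.6 in control and 40.7 at 30 min in KO cells, with none called at 8 h. In WT cells its p65 values were 18.2 in control, 39.4 at 30 min and 40.6 at 8 h. SOCS1 was called there in KO control cells alone, with 42.8. That SOCS1 peak, centred 0.082 kb before the start, did not overlap the p65 peak of the same cells, and 19 bp lay between them. The p65 value at 30 min was thus 1.88-fold that of control in KO cells (1.13 to 3.30) and 2.16-fold in WT cells (1.18 to 4.23). The median fold over all sites called in both was 1.88 in KO cells and 1.85 in WT cells. With that median set to 1 the site stood at 1.00 in KO cells and 1.17 in WT cells.

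The other Il18 site in several lists lay 36.5 kb from the start, beyond the end of the gene on the side of Sdhd (chr9:50590671-50591327), so a link to Il18 is by distance only. It had p65 values of 45.0 and 27.3 in KO cells at 30 min and 8 h and 42.5 in WT cells at 8 h, and SOCS1 values of 15.4 in KO cells at 30 min and 29.4 in WT cells at 8 h. The highest p65 value near Il18, 54.6, came from a site 7.63 kb upstream, inside Bco2, called in KO 8 h cells alone. WT 8 h cells had 53.4 at a site 0.666 kb upstream and 39.2 at one 8.18 kb upstream. Of the 15 sites of Il18, 9 were called in 1 list, and the peaks ranged from 7.05 to 54.6.

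**Figure D4:**
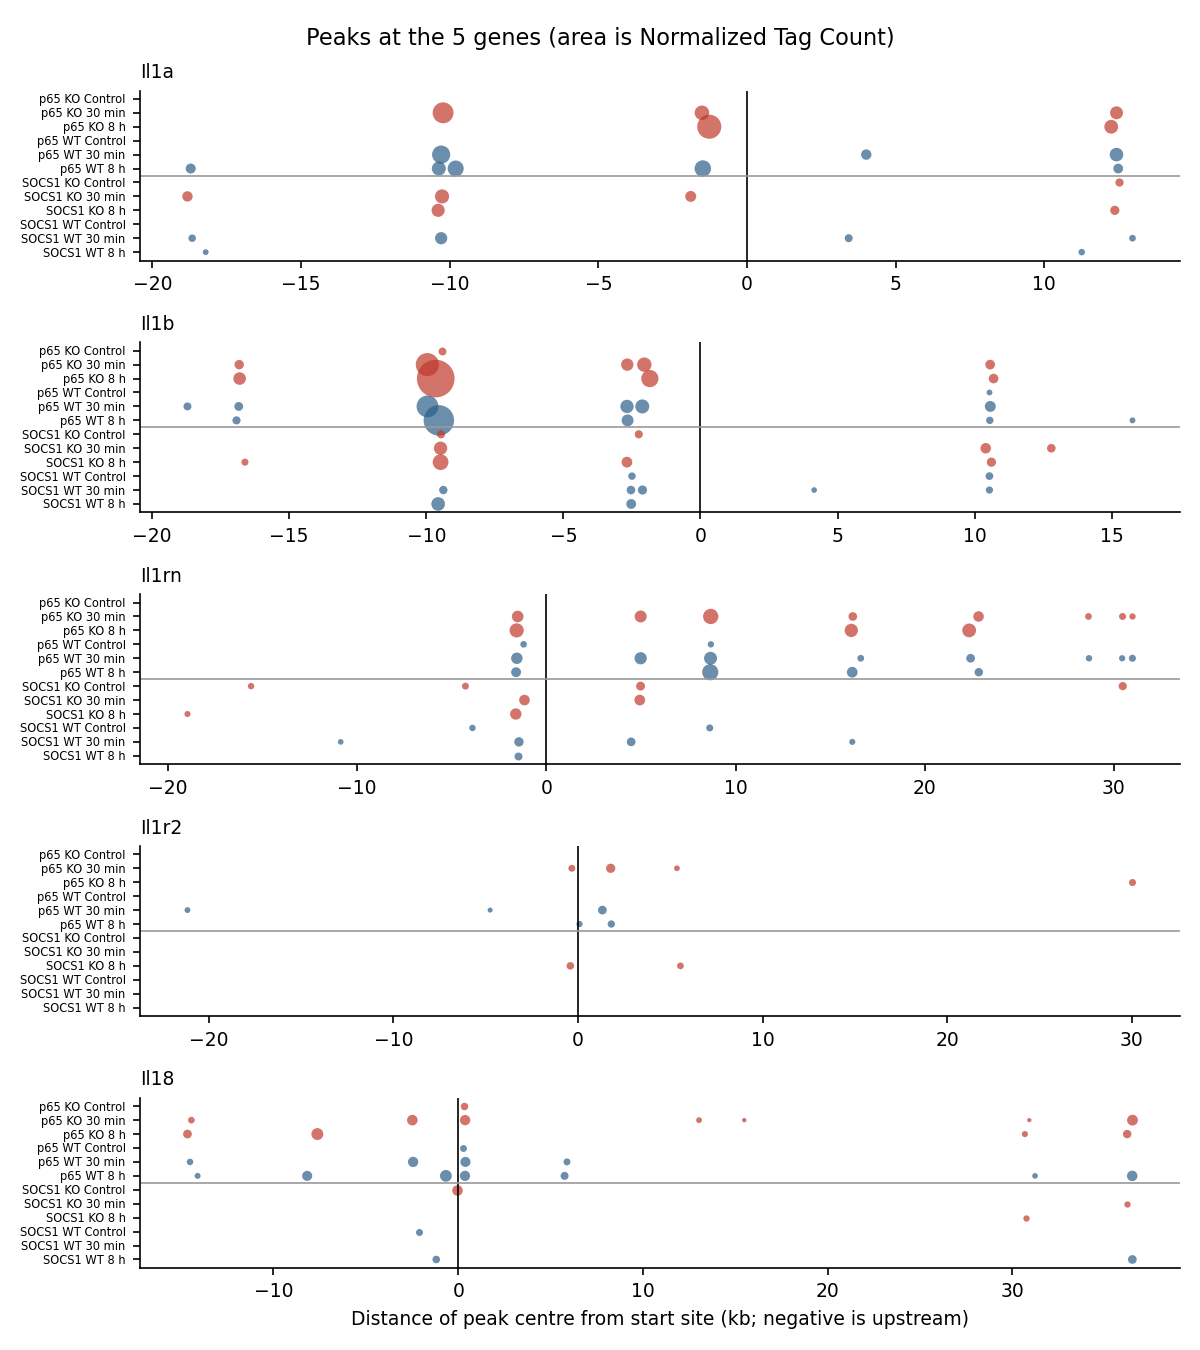
Distance of every peak centre from the start site (kb, negative is upstream) for the 5 genes, 1 row per list with the p65 lists above the line and the SOCS1 lists below, KO in red above WT in blue within each antibody, and dot area in proportion to Normalized Tag Count. The largest dots are the p65 peaks of Il1b near 9.51 kb upstream, and no dot of Il1a or Il1b lies on the start.

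Il1rn, the antagonist, had as many peaks as Il1b (40 each) at lower values, up to 100.6 against 544.6. Its site 1.52 kb upstream of the outermost start (chr2:24335041-24335898) was called in 9 lists. The p65 values were 51.8 and 77.3 in KO cells at 30 min and 8 h, and 16.9, 50.3 and 37.8 in WT cells in control, at 30 min and at 8 h. SOCS1 was called after LPS alone, with 43.4 and 49.5 in KO cells and 33.9 and 24.2 in WT cells at 30 min and 8 h. In WT cells p65 at this site was 2.98-fold that of control at 30 min (1.63 to 5.88) and 2.24-fold at 8 h (1.17 to 4.56), although the control peak did not overlap those after LPS.

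The site at the inner starts of Il1rn, 8.68 kb inside the gene (chr2:24345323-24345732), had the highest values of this gene. Its p65 value in KO cells was 90.1 at 30 min, with none called in control or at 8 h, and in WT cells it was 15.6 in control, 64.6 at 30 min and 100.6 at 8 h. In WT cells p65 was thus 4.14-fold that of control at 30 min (2.25 to 8.33) and 6.45-fold at 8 h (3.54 to 12.9). SOCS1 was called there in WT control cells alone, with 18.8.

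A site 4.98 kb inside Il1rn was called with p65 at 30 min alone, with 55.6 in KO and 57.8 in WT cells, and with SOCS1 in KO cells in control (30.4) and at 30 min (44.5). A site 16.2 kb from the start, just beyond the end of the gene, had p65 values of 28.8 and 67.7 in KO cells at 30 min and 8 h and 44.4 in WT cells at 8 h. SOCS1 was called there at 30 min in WT cells, with 14.4. Other p65 sites, 5 in number and 22.4 to 31.0 kb from the start towards Psd4, had p65 values from 15.0 to 73.2. With p65 they were called after LPS alone. The one 30.5 kb from the start was also called with SOCS1 in KO control cells, with 26.1. The one 31.0 kb from the start lies inside Psd4.

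Il1r2, the decoy receptor, had the fewest and weakest peaks, 11 in 8 sites with values from 9.76 to 32.8 and no site in more than 2 lists. No peak of either antibody was called in control cells. Its strongest p65 site, 1.79 kb inside the start, had 32.8 in KO cells at 30 min and 20.8 in WT cells at 8 h. At 0.375 kb before the start p65 was called with 18.2 in KO 30 min cells and SOCS1 with 21.9 in KO 8 h cells. That site lies within the annotated span of Il1r2, which begins before this start, and reaches into the long non-coding RNA gene Gm16894. SOCS1 was called at Il1r2 in KO 8 h cells alone, at that site and 5.45 kb inside the start with 17.4. The median of the Il1r2 peaks was 18.2, against 29.8 over the peaks of all 5 genes, and the limits of calling bear on such values most.

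Between genotypes p65 levels were close at 30 min. Of the 15 sites called with p65 in both KO and WT cells at 30 min, 0 differed by 2-fold, with KO over WT from 0.788 to 1.39. Over all 24972 sites called in both, 1.2% were higher and 1.2% lower in KO cells by 2-fold. The intervals lay above 1 for the site of Il1rn at its inner starts, at 1.39 (1.07 to 1.83), and the Il1a site 10.3 kb upstream, at 1.32 (1.09 to 1.60), which stood at 0.930 by the findPeaks score per 10 M tags. At the Il1b site 9.51 kb upstream KO over WT was 1.13 (0.957 to 1.33).

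At 8 h, 4 of 9 sites had a p65 level at least 2-fold higher in KO cells and 0 were 2-fold lower, against 31.8% higher over all 15571 sites called in both. The highest was the Il1b site 16.8 kb upstream, at 2.39 (1.51 to 3.88). The Il1a site 1.49 kb upstream stood at 2.13 (1.69 to 2.68), the Il1b site 2.51 kb upstream, whose peaks do not overlap, at 2.10 (1.53 to 2.92) and the Il1rn site 1.52 kb upstream at 2.04 (1.39 to 3.06). Per 100 bp of width, the same sites stood at 1.16, 1.03, 1.02 and 0.991, 0 of the 9 were 2-fold higher in KO cells and 1 was 2-fold lower. The Il1b site 9.51 kb upstream stood at 1.53 (1.34 to 1.74) by the whole peak and at 0.741 per 100 bp. Of the 9 sites, 3 were above 1 by both measures, 1 was below 1 by both and 5 had opposite directions. The one below 1 by both was the Il18 site 36.5 kb from the start, at 0.642 (0.391 to 1.04) by the whole peak and 0.311 per 100 bp, and it was the site 2-fold lower per 100 bp. Over all sites the median was 1.65 by the whole peak and 0.798 per 100 bp, and with that whole-peak median set to 1, 0 of the 9 were 2-fold higher and 1, the same Il18 site at 0.390, was 2-fold lower in KO cells.

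**Figure D5:**
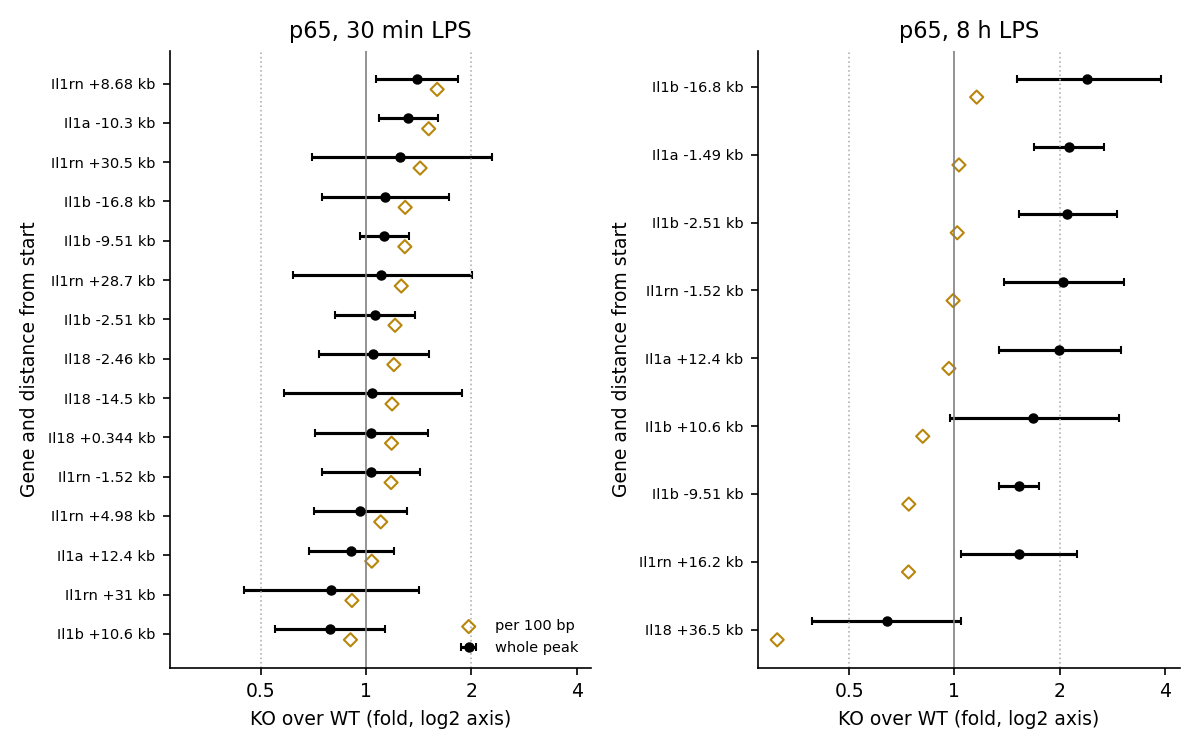
KO over WT fold of p65 Normalized Tag Count at sites called in both genotypes, at 30 min (left, 15 sites) and 8 h (right, 9 sites), on a log2 axis; black points are whole peaks with 95% counting intervals and open diamonds are the same folds per 100 bp of peak width. At 8 h the black points lie mostly above 1 and the diamonds near or below it, with the Il1b site 9.51 kb upstream at 1.53 and 0.741.

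For SOCS1, 2 of 5 sites were at least 2-fold higher in KO cells at 30 min, against 27.9% of all sites, and 1 of 3 at 8 h, against 27.7%. At 30 min these were the Il1b sites 9.51 kb upstream, at 2.52 (1.58 to 4.14), and 10.6 kb downstream, at 2.12 (1.20 to 3.86). Per 100 bp they stood at 1.45 and 1.21. The deposited fold over IgG was 6.47 in KO and 45.3 in WT cells at the first, where the WT IgG count was at its floor of 0.5. At the second it was 19.9 in KO and 8.33 in WT cells. At 8 h the site 2-fold higher was the Il1rn site 1.52 kb upstream, at 2.05 (1.19 to 3.59), and 1.42 per 100 bp. With the median fold of all shared sites set to 1, 0 of the 5 sites at 30 min and 0 of the 3 at 8 h were 2-fold higher.

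Over time in WT cells, all 4 sites with p65 in control had at least 2-fold more at 30 min, against 44.6% of all sites, and 3 of 4 at 8 h, against 21.3%. With the median fold of all shared sites set to 1, 1 of the 4 was 2-fold higher at each time, the Il1rn site at the inner starts, at 2.24 at 30 min and 5.21 at 8 h. Between the LPS times, 0 of 10 WT sites were 2-fold higher at 8 h and 1 was 2-fold lower, against 4.29% and 22.3% of all sites. That one was the Il1b site 10.6 kb downstream, at 0.463 (0.272 to 0.762). Per 100 bp 1 was higher, the Il1b site 9.51 kb upstream at 2.07, and 1 lower; with the median set to 1, 2 were higher, that site at 2.78 and the Il1rn site at the inner starts at 2.22, and 0 lower. In KO cells 4 of 11 sites were 2-fold higher at 8 h than at 30 min, against 20.6% of all sites. Per 100 bp 0 were higher and 2 lower in KO cells, and with the median set to 1, 2 were higher and 1 lower.

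SOCS1 and p65 were called at the same sites in part. In KO cells they shared 2 sites in control, 6 at 30 min and 7 at 8 h, which is 100%, 24.0% and 50.0% of the p65 sites and 25.0%, 66.7% and 63.6% of the SOCS1 sites of these genes. In WT cells they shared 2, 5 and 4 sites, which is 50.0%, 21.7% and 17.4% of the p65 sites and 40.0%, 41.7% and 57.1% of the SOCS1 sites. Over all sites of the series the shared part of the p65 sites was 41.3%, 31.0% and 35.8% in KO cells and 28.3%, 32.7% and 33.2% in WT cells, and that of the SOCS1 sites was 18.2%, 66.2% and 59.3% in KO cells and 28.9%, 60.3% and 74.5% in WT cells. After LPS the Il1b site 9.51 kb upstream and the Il1rn site 1.52 kb upstream were shared in both genotypes at both times, and the Il1b site 10.6 kb downstream was shared at both times in KO cells and at 30 min in WT cells. No site of Il1r2 was shared within a group. Counted where a p65 and a SOCS1 peak overlap each other directly, the shared sites numbered 1, 4 and 6 in KO cells and 2, 4 and 4 in WT cells, and the Il1b site 9.51 kb upstream was then shared in KO control cells and at 8 h in both genotypes, and not at 30 min. At the Il1rn site 1.52 kb upstream the peaks did not overlap directly in KO 30 min cells, where 49 bp lay between them.

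Of 31 other genes of the interleukin-1 pathway, 17, 27 and 26 had a p65 peak within 20 kb in KO cells and 13, 28 and 26 in WT cells, at control, 30 min and 8 h. For SOCS1 the numbers were 23, 20 and 21 in KO cells and 13, 23 and 17 in WT cells. Of all genes, 42.7%, 70.2% and 62.4% had a p65 peak in KO cells and 39.7%, 67.3% and 62% in WT cells, and 62.5%, 57.5% and 51.1% had a SOCS1 peak in KO cells and 38.9%, 54.4% and 45.2% in WT cells. For the genes named next the highest peak of each list is given, which need not be the same peak in every list. Among the receptors, Il1r1, the signalling receptor, had p65 values of 19.3, 284 and 87.7 in KO cells, against none, 177.5 and 63.7 in WT cells. Its 30 min value was thus the highest in both genotypes. Casp1, the protease that matures Il1b and Il18, lies beside Casp4, and both had the same p65 values. These were 28.4, 175.5 and 149.6 in KO cells and none, 203.1 and 99.2 in WT cells. Irak3, a kinase-like inhibitor of receptor signalling, was highest at 8 h, with 29.6, 65.1 and 218.7 in KO cells and 18.2, 58.2 and 153.0 in WT cells. Nlrp3, an inflammasome sensor, Aim2, Myd88, Irak2, Irak3 and Il1f10 had peaks in all 12 lists, while 2 interleukin-36 cytokines, Il36b and Il36g, had none in any.

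The genes with the most similar pattern were found by Pearson's r of the log2 summed Normalized Tag Count plus 1 over the 12 lists. These were Ncf4, a subunit of the phagocyte oxidase, Stxbp3 and Specc1 for Il1b (r of 0.984, 0.981 and 0.977), and Cdc27, Agfg1 and Ddhd1 for Il1a (0.994, 0.993 and 0.990). For Il1rn they were Casc1, Etfrf1 and Klf3 (0.992, 0.987 and 0.985), for Il1r2 Exoc3, Adam19 and Dhx36 (0.998, 0.997 and 0.996), and for Il18 Crnkl1, Ulbp1 and Fbxl15 (0.976, 0.928 and 0.925). The 12 points share depth, peak width and the lists in which a gene has no peak, and they are the top 3 of 3584 to 13971 candidates, so these values describe the lists.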

How the data were processed

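Per the submitters' processing notes, the tools were cutadapt, Bowtie2 2.4.1 and HOMER 4.11 with the mm10 build. Per the file headers, peaks were called by findPeaks in factor mode from 1 library against its IgG library, at an FDR of 0.001 and at least 4-fold over IgG and over the surrounding 10 kb. The signal used, the Normalized Tag Count, was scaled by the authors to 10000000 tags. The deposited findPeaks score holds tags without scaling to depth. The expected count, as deposited, gives IgG tags under each peak and is never below 0.5. Each deposited ratio is a fold over IgG or over the local background. Of 20 labelled samples, 6 IgG libraries entered through the peak calls and 2 internal controls were not used here; the E. coli spike-in was not used here. Peaks were joined into sites with Python 3.11.15 and pandas 2.3.3, and of several peaks of a list in a site the highest was used. Intervals are exact Poisson intervals and exact conditional intervals of a ratio, checked on simulated data, and no test was made because each group has 1 library. Sites called in 4 or more lists and the strongest site of each gene and antibody were named, with 3 genes of most similar pattern and listed pathway genes. Genes and lists were chosen with earlier results of these data known. Promoter sequences and gene spans are RefSeq's, of GRCm38.p6; exons and introns were not distinguished, and peak sequences were not analysed here. Alternatives changed the window, the local fold, the lowest tag count, the joining of sites and the scaling.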

Additional observations from a re-analysis of the deposited data

How the results depend on the processing

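With 1 library per group, variation between cultures or animals is unknown, and no paired analysis was possible because each group has 1 library. Counts depended most on the authors' local threshold: at a local fold of at least 8, p65 sites numbered 1, 11 and 4 in KO and 2, 6 and 5 in WT cells (control, 30 min, 8 h), SOCS1 sites 5 and 3 in KO 30 min and 8 h and 2, 6 and 2 in WT cells, genes with a peak 1 (p65 KO control), 3 (SOCS1 KO 8 h), 1 (SOCS1 WT control) and 2 (SOCS1 WT 8 h), and shared sites 1 and 1 in KO control and 8 h and 1 and 2 in WT control and 8 h. A 10 kb window left 15 p65 sites in WT 30 min cells, and joining centres within 500 bp gave 8 shared sites there. Counting direct overlap of p65 and SOCS1 peaks, chosen after seeing the data, left 1 shared site in KO control cells. A common lowest tag count of 10.3 left every count within 1.5 times. At the Il1b site 9.51 kb upstream, setting the median fold of shared sites to 1 gave p65 folds of 4.58 (KO 30 min over control), 11.1 (KO 8 h over control), 2.16 (KO 8 h over 30 min), 2.78 (WT 8 h over 30 min) and 0.928 (8 h KO over WT), and SOCS1 0.857 (8 h KO over WT). The findPeaks score per 10 M tags gave p65 4.56 and 13 (KO 30 min and 8 h over control) and 0.879 (30 min KO over WT), and SOCS1 4.87 and 8.22 (KO 30 min and 8 h over control). Per 100 bp of width, an alternative chosen after seeing the data, gave p65 1.19 (KO 8 h over 30 min) and 0.741 (8 h KO over WT), SOCS1 1.45 (30 min KO over WT) and 0.923 (8 h KO over WT), and turned the p65 8 h KO over WT fold of the Il1rn site 1.52 kb upstream to 0.991. Summing the peaks of a site could change only the folds of the Il1b site 2.51 kb upstream, the site with several peaks in a list, and changed 5 of 82 folds. The cause of these shifts was not tested beyond the widths.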
